A study of Mus musculus with 7 samples.

Results

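Apoe and 5 other genes that make, load, unload or trim lipoproteins were followed in mouse cells during and after reprogramming to pluripotency. The 6 genes are Apoe, Apoc1, Apob, Abca1, Abcg1 and Lpl, taken by symbol from tables of 29267 Ensembl genes, in which each symbol matched 1 identifier. They were chosen from measured values, the TPM and expected counts of these same 7 libraries, so every level and difference below is a description and carries no test. Each group has 1 library and no replicate, so the spread between cultures is unknown. Intervals cover the counting of reads only, and reads that are PCR copies of a molecule would make them too narrow.

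The cells began as fibroblasts (MEFs) of OG2 mouse embryos, which carry a GFP transgene under the Oct4 promoter with its distal enhancer. All reprogramming cells received retroviruses for Oct4, Sox2, Klf4 and c-Myc. They were grown in mES medium, which holds serum, LIF and vitamin C, or in 5C medium, a serum-free medium with N2, bFGF, LIF and vitamin C, and were sorted on day 15 by GFP. The sorted groups are mES-Oct4GFP+ (mES+ below) and mES-Oct4GFP- (mES-), and, from the other medium, 5C-Oct4GFP+ (5C+) and 5C-Oct4GFP- (5C-). Sorted 5C+ cells were then moved to naive medium, with N2, B27, LIF, vitamin C, CHIR99021 and PD0325901, or to primed medium, with N2 and B27, bFGF and activin A, and kept for 20 passages. They are called naive and primed cells below. The last library, R1 ESCs-primed, came from the embryonic stem cell line R1, at 20 passages, and is called R1 primed. These cells were converted on MEF feeders in primed medium and then kept on plates coated with serum, with CHIR99021 and IWR-1 in place of bFGF and activin A. The retroviruses were given to all groups but R1 primed, and whether they were still active was not measured here. GFP marks only cells in which the Oct4 reporter is active.

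Lipoproteins are particles of fat and cholesterol held together by apolipoproteins. Apob is built into the particle as it forms in the secretory pathway and needs the transfer protein Mttp, while Apoe and Apoc1 are small and move between particles. Apoe is the ligand by which remnant particles enter cells through receptors at the cell surface, and Apoc1 slows that uptake. Abca1 and Abcg1 pump cholesterol out of cells onto apolipoproteins and onto formed particles, and both are classical targets of the liver X receptors (LXR). Lpl, lipoprotein lipase, splits the triglyceride of circulating particles and uses Apoc2 as its cofactor. Liver, gut and the visceral endoderm of the yolk sac are the known sources of Apob particles, and macrophages are a well-known source of Apoe.

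The libraries held between 6108252 and 11496615 expected counts. Levels are given in TPM, the share of a library's transcripts scaled to the same sum in each, which corrects for gene length and depth. The labels were checked against marker genes. Zfp42, a naive pluripotency marker, was at 337 TPM in mES+, 219 in 5C+ and 355 in naive cells, against 1.31 in mES- and 14.1 in 5C- cells and 0 and 6.02 in the primed and R1 primed cells. Not all naive markers were alike in mES+ and 5C+ cells, as given below with Lpl. Pou5f1, which is Oct4 itself, was high in all 7 libraries (1321 to 3640 TPM), and reads of the viral and the cell's own Oct4 and Klf4 cannot be told apart in these tables. In bulk libraries such as these, fewer cells of a type and less RNA per cell cannot be told apart either.

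Apoe (ENSMUSG00000002985, chr7:19696109-19699188, minus strand, GRCm38) was the most abundant of the 6 genes in every library. It stood at 2123 TPM (95% Poisson interval 2084 to 2162, 11463 reads) in 5C+ cells, where it ranked 49 among all genes by TPM. The level was 551 TPM in mES+, 606 in mES- and 191 in 5C- cells. It was 671 TPM in naive, 156 in primed and 110.4 in R1 primed cells. One library thus stood far above the rest: 5C+ cells had 3.17 times (3.04 to 3.3) the level of naive cells, the next highest. The following 3 libraries, naive, mES- and mES+, lay within steps of 1.11 and 1.1, and the 3 lowest, 5C-, primed and R1 primed, within steps of 1.22 and 1.41. These steps pass the counting interval, but no replicate shows whether they pass the spread between cultures. The whole range was 19.2-fold (17.5 to 21.2). Apoe alone made up between 73.3% and 93.8% of the summed TPM of the 6 genes.

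The promoter of Apoe is shown because this gene has the highest level and its level in 5C medium differed between the sorts. It is the window from 250 bases before to 50 after the start that matches the annotated gene end (RefSeq, GRCm38.p6, chr7:19699139-19699438, minus strand), printed 5′ to 3′. Capitals would mark matches on either strand to a TATA box (TATAAA), a GC box (GGGCGG), a nuclear receptor half-site (AGGTCA), an octamer (ATGCAAAT), a STAT motif (TTCNNNGAA) or an E-box (CACGTG).
Apoe: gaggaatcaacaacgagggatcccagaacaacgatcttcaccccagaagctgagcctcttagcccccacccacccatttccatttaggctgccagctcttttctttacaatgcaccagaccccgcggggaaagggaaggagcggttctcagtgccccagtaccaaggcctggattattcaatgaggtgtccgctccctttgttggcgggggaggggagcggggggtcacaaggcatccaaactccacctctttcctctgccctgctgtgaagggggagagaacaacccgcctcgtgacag
None of these letters occur in this window, which says nothing about the factors. RefSeq gives Apoe another 2 starts, further into the gene. The window of the first of them (chr7:19698572-19698871) holds 2 overlapping TATA matches, and that of the second holds none of the motifs. Among 32544 RefSeq windows of the same length, 13.6% hold the TATA box, 35.9% the GC box, 16.2% the half-site, 1.75% the octamer, 8.33% the STAT motif and 7.17% the E-box. The tables sum the reads of all Apoe transcripts, so the use of this start was not measured.

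**Figure D1:**
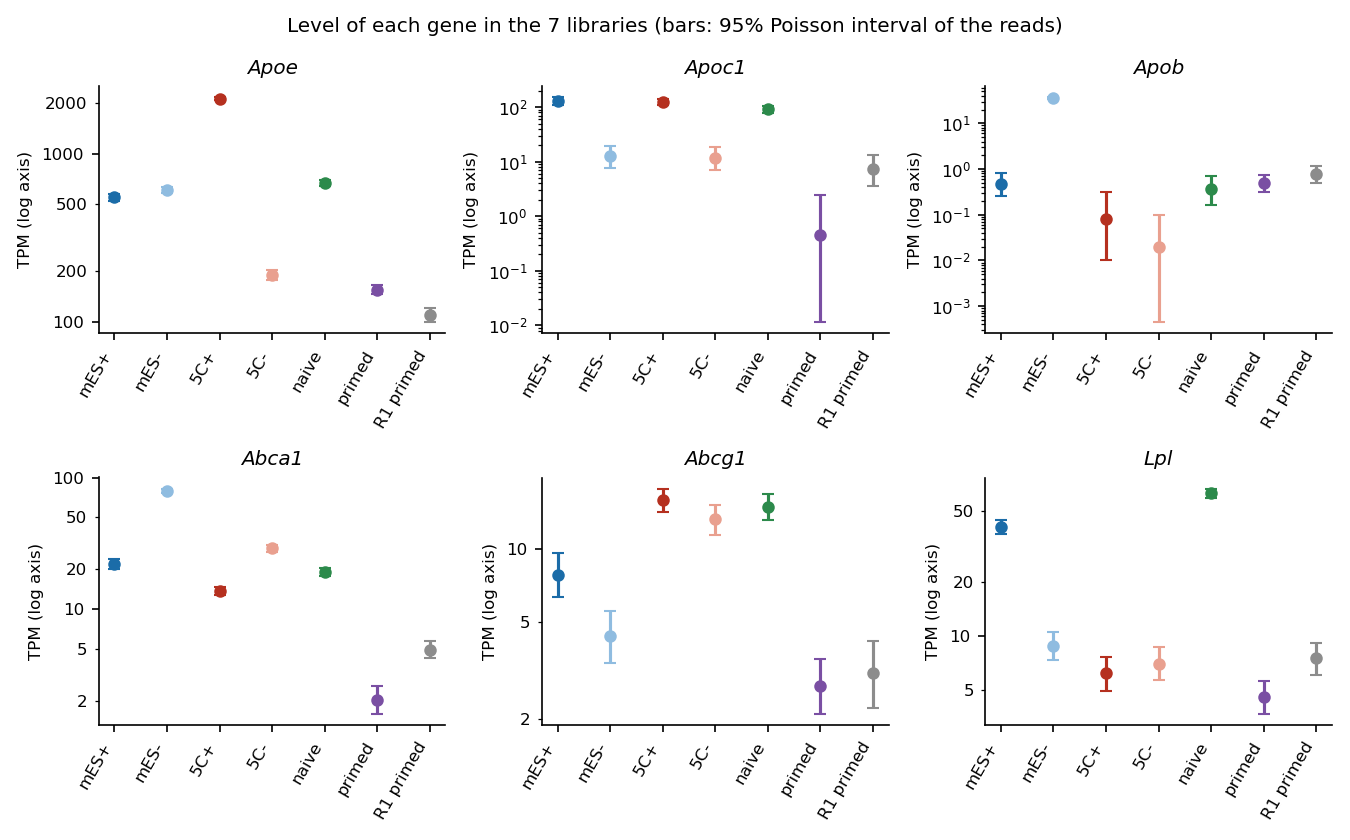
TPM on log axes of the 6 genes in the 7 libraries, 1 point per library, with 95% Poisson intervals of the read counts and no replicates (+ and - mark the Oct4GFP sorts). Apoe is highest in 5C+ cells (2123 TPM), Apob and Abca1 in mES- cells (35.21 and 79.38 TPM) and Lpl in naive cells (62.37 TPM).

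Apoc1 (ENSMUSG00000040564, chr7:19689481-19692660, minus strand), the inhibitor of particle uptake that lies beside Apoe, separated the libraries in another way. It was at 129.9 TPM (154 reads) in mES+, 123 (250 reads) in 5C+ and 91.24 (153 reads) in naive cells. It was at 12.51 TPM (20 reads) in mES-, 11.93 (18 reads) in 5C-, 7.35 (10 reads) in R1 primed and 0.45 (1 read) in primed cells. The 3 libraries with high Zfp42 were thus the 3 with high Apoc1, and the step from the lowest of them down to mES- cells was 7.29-fold (4.56 to 12.3). The 2 highest did not differ beyond counting error (ratio 1.06, 0.859 to 1.3), nor did mES- from 5C- cells (1.05, 0.527 to 2.1) or 5C- from R1 primed cells (1.62, 0.71 to 3.93). R1 primed cells lay 16.3-fold (2.33 to 710) above primed cells. Apoe was not ordered in this way: its TPM was 4.24 times that of Apoc1 in mES+ cells, 17.3 times in 5C+ cells and 48.5 times in mES- cells.

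Apob (ENSMUSG00000020609, chr12:7977648-8016835, plus strand), the structural protein of newly made particles, was seen at an appreciable level in 1 library. It was at 35.21 TPM (95% Poisson interval 33.3 to 37.2, 1212 reads) in mES- cells. The other 6 libraries held between 1 and 22 reads each, with levels of 0.02 TPM in 5C-, 0.08 in 5C+, 0.36 in naive, 0.47 in mES+, 0.49 in primed and 0.78 in R1 primed cells. Between neighbours in that order the counting intervals of the ratios all took in 1. Libraries further apart in the order could still differ: 5C+ cells (2 reads) lay 5.59-fold (1.27 to 51) below mES+ cells (13 reads). From R1 primed to mES- cells the step was 45.1-fold (29.4 to 73.2).

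Other genes of endoderm and of particle assembly stood high in the same library. Apoa1, the main apolipoprotein of HDL, was at 61.26 TPM (257 reads) in mES- cells, without a read in the other sorted libraries and in naive cells, and at 2.31 in primed and 1.35 in R1 primed cells. Mttp, which lipidates Apob, was at 19.06 TPM there and at 1.08 to 5.81 elsewhere. The serum carriers Ttr and Afp, both products of visceral endoderm, were at 36 and 19.25 TPM there and at no more than 0.24 in any other library. Over 10 extraembryonic endoderm markers the summed TPM was 246 in mES- cells, where all 10 were at 1 TPM or more and Dab2 led with 103 TPM. It was 5.83 to 20.5 in the other sorted and naive libraries, and 102 and 74.4 in primed and R1 primed cells, where Sox17 led (60.37 and 35.28 TPM) and Ttr had no read. Fibroblast markers were also highest there: the summed TPM of 10 was 536, with Col1a1 at 160 TPM, against 277 in 5C-, 86.7 in primed, 245 in R1 primed and 13.5 to 17 in the remaining 3 libraries. The part of these cell types in the level of Apob, Abca1 or any other gene here was not tested.

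**Figure D2:**
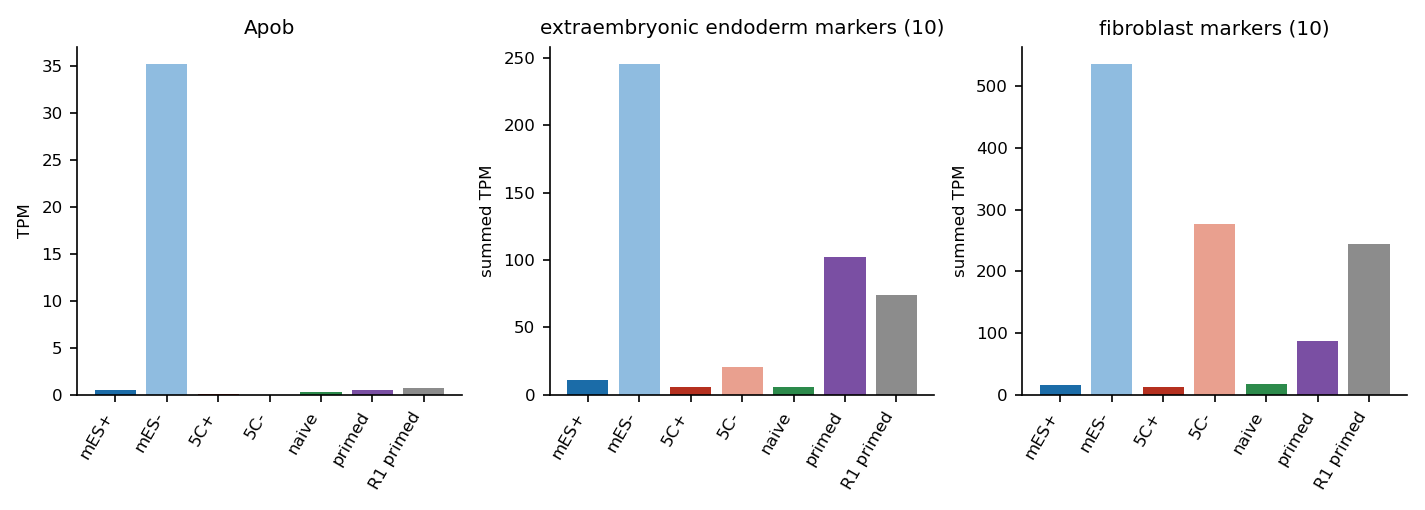
TPM of Apob and summed TPM of 10 extraembryonic endoderm markers and of 10 fibroblast markers, 1 bar per library and no error bars. The mES- library is the highest in all 3 panels (35.21, 246 and 536 TPM).

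The Apob promoter is shown because the gene passed 1 TPM in 1 library of 7 (RefSeq, GRCm38.p6, chr12:7977427-7977726, plus strand, 5′ to 3′, capitals as above). Its RefSeq start lies inside the gene as GENCODE draws it.
Apob: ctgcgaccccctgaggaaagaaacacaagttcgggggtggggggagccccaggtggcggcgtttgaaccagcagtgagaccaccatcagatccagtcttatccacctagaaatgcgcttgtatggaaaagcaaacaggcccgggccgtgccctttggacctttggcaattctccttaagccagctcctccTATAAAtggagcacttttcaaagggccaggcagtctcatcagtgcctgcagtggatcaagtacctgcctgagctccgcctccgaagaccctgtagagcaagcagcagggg
The capitals are a TATA box, 60 bases before the RefSeq start and 31 before the GENCODE start. A match is a description of the letters and not of a working site.

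Abca1 (ENSMUSG00000015243, chr4:53030787-53159895, minus strand), the exporter that loads lipid-poor apolipoproteins, was highest in the sorted Oct4GFP- cells. It was at 79.38 TPM (3255 reads) in mES- and 28.89 in 5C- cells. It was at 22.11 TPM in mES+, 19.05 in naive and 13.7 in 5C+ cells, and at 4.92 in R1 primed and 2.05 in primed cells. Every step in this order passed its counting interval, from 1.16-fold (1.04 to 1.3) between mES+ and naive cells to 2.78-fold (2.37 to 3.28) between 5C+ and R1 primed cells. RSEM assigned these reads to transcripts of different length, with a mean of 5506 bases in primed and 10262 in R1 primed cells. On CPM, the share of a library's counts without regard to length, the lead of R1 primed over primed cells was accordingly 4.41-fold in place of 2.4-fold, and naive cells stood 1.28 times above mES+ cells in place of below them.

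The Abca1 promoter is printed for the spread of this gene over 38.7-fold and for its matches (RefSeq, GRCm38.p6, chr4:53159846-53160145, minus strand, 5′ to 3′, capitals as above).
Abca1: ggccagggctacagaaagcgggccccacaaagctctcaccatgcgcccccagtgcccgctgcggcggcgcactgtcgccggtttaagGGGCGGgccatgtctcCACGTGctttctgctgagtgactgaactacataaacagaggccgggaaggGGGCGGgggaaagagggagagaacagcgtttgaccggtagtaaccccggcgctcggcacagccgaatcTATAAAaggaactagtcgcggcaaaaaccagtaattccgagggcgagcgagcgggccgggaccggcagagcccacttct
The capitals mark a GC box 163 bases before the start, an E-box at 147, a second GC box at 97 and a TATA box at 29. Promoters of Apoc1, Abcg1 and Lpl are not shown.

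Abcg1 (ENSMUSG00000024030, chr17:31057675-31117988, plus strand), which exports cholesterol to formed particles, was higher in the 5C libraries of both sorts than in the mES libraries. The 3 libraries of 5C origin outside primed medium were close together, with 15.8 TPM (319 reads) in 5C+, 14.84 in naive and 13.18 in 5C- cells, and did not differ from each other in steps beyond counting error. The next step, from 5C- down to mES+ cells, was 1.69-fold (1.31 to 2.18). The mES+ and mES- cells had 7.81 and 4.36 TPM (92 and 68 reads), and R1 primed and primed cells 3.09 and 2.74. The TPM of Abca1 was 18.2 times that of Abcg1 in mES- cells and 0.867 times in 5C+ cells.

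Lpl (ENSMUSG00000015568, chr8:68880491-68907448, plus strand), the lipase, was high in 2 libraries. It was at 62.37 TPM (1101 reads) in naive and 40.5 TPM (504 reads) in mES+ cells. The other 5 libraries lay between 4.55 TPM in primed and 8.79 TPM in mES- cells, with 89 to 124 reads each, and neighbours among them did not differ beyond counting error. The step from mES+ down to mES- cells was 4.59-fold (3.77 to 5.64). Both of the high libraries express the naive marker Zfp42, but so did 5C+ cells, in which Lpl was at 6.16 TPM. Other naive markers differed more: in 5C+ against mES+ cells Tfcp2l1, Dppa3 and Prdm14 were 6.68-, 6.93- and 2.5-fold lower. Klf4 was 3.77 times higher there, and Zfp42, Esrrb, Klf2 and Tbx3 had ratios between 0.644 and 0.933. The summed TPM of 6 primed markers was 303 in 5C+ and 62.6 in mES+ cells. The Lpl reads of the 2 high libraries were assigned to transcripts of 3809 and 3808 bases on average, and those of 5C+ cells to 2609 bases.

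Adipocytes and macrophages, known for Lpl and Apoe, were looked for by their markers. The summed TPM of 5 adipocyte markers was at most 2.25 in every library but 5C-, where it was 13.5 with Fabp4 at 12.93 TPM, and all 5 were without reads in 5C+ cells. The summed TPM of 14 macrophage markers was 85.1 in mES+, 123 in mES-, 152 in 5C+, 77.7 in 5C-, 99.6 in naive, 13.2 in primed and 14 in R1 primed cells. Laptm5, which is not restricted to macrophages, was the highest of them in the first 5 (37.88 to 104 TPM) and Cd68 in the last 2. Some of the list differed in the direction of Apoe and others did not. Cd68, a lysosomal protein abundant in macrophages, was at 12.86 TPM in mES+, 50.39 in mES-, 42.67 in 5C+, 20.09 in 5C- and 17.5 in naive cells. It was thus 3.32 times higher (2.37 to 4.76) in 5C+ than in mES+ cells, 2.51-fold lower (1.94 to 3.26) in 5C- than in mES- cells, 2.12 times higher (1.65 to 2.76) in 5C+ than in 5C- cells and 2.44-fold lower (1.9 to 3.15) in naive than in 5C+ cells. Laptm5 was 1.54 times higher (1.38 to 1.73) in 5C+ than in mES+ cells and 2.74 times higher (2.43 to 3.09) than in 5C- cells. Cd14, a receptor for lipopolysaccharide, had 35 reads in 5C+ and none in mES+ cells, at least 6.8-fold higher against 3 reads, but was highest in 5C- cells (18.91 TPM). Between mES+ and mES- cells, where Apoe was similar, Cd68 was lower in mES+ cells (12.86 against 50.39 TPM). In 5C+ against mES+ cells, 3 of 4 tested markers were past 2-fold (defined below), 2 higher and 1 lower, beside 27.2% of all tested genes. The lower was Fcer1g (1.17 against 3.54 TPM, 4 reads in each), and Itgam, under 1 TPM in both, was 3.72-fold lower (1.19 to 13.7). Cd68, Cd14, Fcer1g and Itgam were named after their values were seen, and the part of macrophages in the level of Apoe was not tested. Of the other markers, C1qb was without a read in all 7 libraries, and Adgre1, Csf1r, Lyz2, Tyrobp, C1qa and C1qc were at 0 in 5C+ cells. Csf1r had 109 reads (5.33 TPM) in mES- cells and at most 4 in any other.

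A difference between libraries is given as past 2-fold when log2(TPM + 1) differed by at least 1 and the TPM was at least 1 in either. Ratios are of TPM with exact Clopper-Pearson 95% intervals. The 8 comparisons share libraries with each other, so their results are set side by side and not combined. Apob is left out of the tested genes wherever it stayed under 1 TPM in both libraries. Apob was thus tested only in comparisons with mES- cells, in which it could only come out as lower in the other library.

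The difference between 5C and mES medium was read first in the cells that had activated Oct4GFP. These cells also differed in naive and primed markers, as given above, and the part of the medium itself was not tested. In 5C+ cells Apoe was 3.86 times (3.66 to 4.06) its level in mES+ cells, and Lpl was 6.59-fold lower (5.25 to 8.35), or 9.66-fold on CPM. These were the 2 of 5 tested genes past 2-fold, beside 27.2% of all tested genes. Abcg1 was 2.02 times higher (1.6 to 2.58) and stayed just under the limit on the log2(TPM + 1) scale, with a difference of 0.93. Abca1 was 1.61-fold lower (1.43 to 1.82), and Apoc1 was the same within counting error (ratio 0.946, 0.771 to 1.16).

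In the cells that had not activated the reporter, 5C medium went with less Apoe. The level in 5C- cells was 3.17-fold lower (2.93 to 3.44) than in mES- cells, Abca1 was 2.75-fold lower (2.57 to 2.94), and Abcg1 was 3.02 times higher (2.29 to 4.04). Apob had 1 read against 1212, a ratio of 1998-fold lower from rounded counts, with a counting interval of 358 to 78999. From the TPM it was 1760-fold lower, and on CPM 1147-fold. The mean RSEM length of Apob differed between the 7 libraries, from 4201 to 13369 bases. With Apoe, Abca1, Abcg1 and Apob, 4 of 6 genes were past 2-fold, against 19.8% of all tested genes. Apoc1 (ratio 0.953, 0.475 to 1.9) and Lpl (0.795, 0.6 to 1.05) had intervals that took in 1. The medium thus went with higher Apoe in one sort and lower Apoe in the other, while Abcg1 was higher in 5C medium in both.

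Within mES medium, cells with and without Oct4GFP had similar Apoe but differed in most of the other genes. Apoe was 1.1-fold lower (1.04 to 1.17) in mES+ than in mES- cells. Apoc1 was 10.4 times higher (6.49 to 17.5) and Lpl 4.59 times (3.77 to 5.64), whereas Apob was 74.2-fold lower (43.2 to 140) and Abca1 3.59-fold lower (3.27 to 3.96). That is 4 of 6 genes past 2-fold, beside 46.7% of all tested genes. Abcg1 was 1.79 times higher (1.3 to 2.49). The endoderm and fibroblast markers given above differ between these same 2 libraries.

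Within 5C medium, Apoe was higher with the reporter. Its level was 11.1 times higher (10.3 to 12) in 5C+ than in 5C- cells, and Apoc1 was 10.3 times higher (6.39 to 17.7). Abca1 was 2.11-fold lower (1.91 to 2.33), with a log2(TPM + 1) difference of -1.02 that became -0.89 in FPKM and -0.87 after median-ratio rescaling, under the limit. The count was 3 of 5 genes past 2-fold, against 31% of all tested genes. Abcg1 (ratio 1.2, 1 to 1.44) and Lpl (0.877, 0.648 to 1.19) were close to equal.

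Naive cells, at 20 passages, had more Lpl and less Apoe than the 5C+ cells they came from, which had 0 passages. The medium and the passages cannot be told apart in this difference. Lpl was 10.2 times higher (8.17 to 12.7) in naive cells, and 15.6 times on CPM, while Apoe was 3.17-fold lower (3.04 to 3.3). These were 2 of 5 genes past 2-fold, where 27.5% of all tested genes were. Abca1 was 1.39 times higher (1.25 to 1.54), Apoc1 1.35-fold lower (1.1 to 1.66), and Abcg1 had a ratio of 0.94 (0.793 to 1.11). Set beside mES+ cells, which also express Zfp42, naive cells had 0 of 5 genes past 2-fold, where 8.77% of all tested genes were. Apoe was then 1.22 times higher (1.15 to 1.29), Lpl 1.54 times (1.38 to 1.71) and Abcg1 1.9 times (1.49 to 2.44), and Apoc1 was 1.42-fold lower (1.13 to 1.79).

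Primed cells, also at 20 passages, had 4 of 5 genes past 2-fold lower, beside 29.7% of all tested genes past it in either direction. Here too the medium and the passages cannot be told apart. Apoe was 13.6-fold lower (12.8 to 14.5) than in 5C+ cells, Abcg1 5.76-fold (4.37 to 7.71) and Abca1 6.69-fold (5.22 to 8.69), the last of which was 10.2-fold lower on CPM. Apoc1 had 1 read against 250, a ratio of 273-fold lower with an interval of 48.6 to 10843. Lpl was 1.35-fold lower with an interval of 1 to 1.83. Primed cells and R1 primed cells, which had different origins and, by the methods, different maintenance, differed past 2-fold in 1 of 5 genes, where 7.39% of all tested genes were. That gene was Apoc1, with 1 read against 10 (16.4-fold lower, 2.33 to 710). Abca1 was 2.4-fold lower (1.82 to 3.21), a log2(TPM + 1) difference of -0.96. It was 4.41-fold lower on CPM, and with CPM or a pseudocount of 0.1 it made the count 2 of 5. Apoe was 1.41 times higher (1.26 to 1.59) in primed than in R1 primed cells, and Lpl was 1.64-fold lower (1.22 to 2.21).

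**Figure D3:**
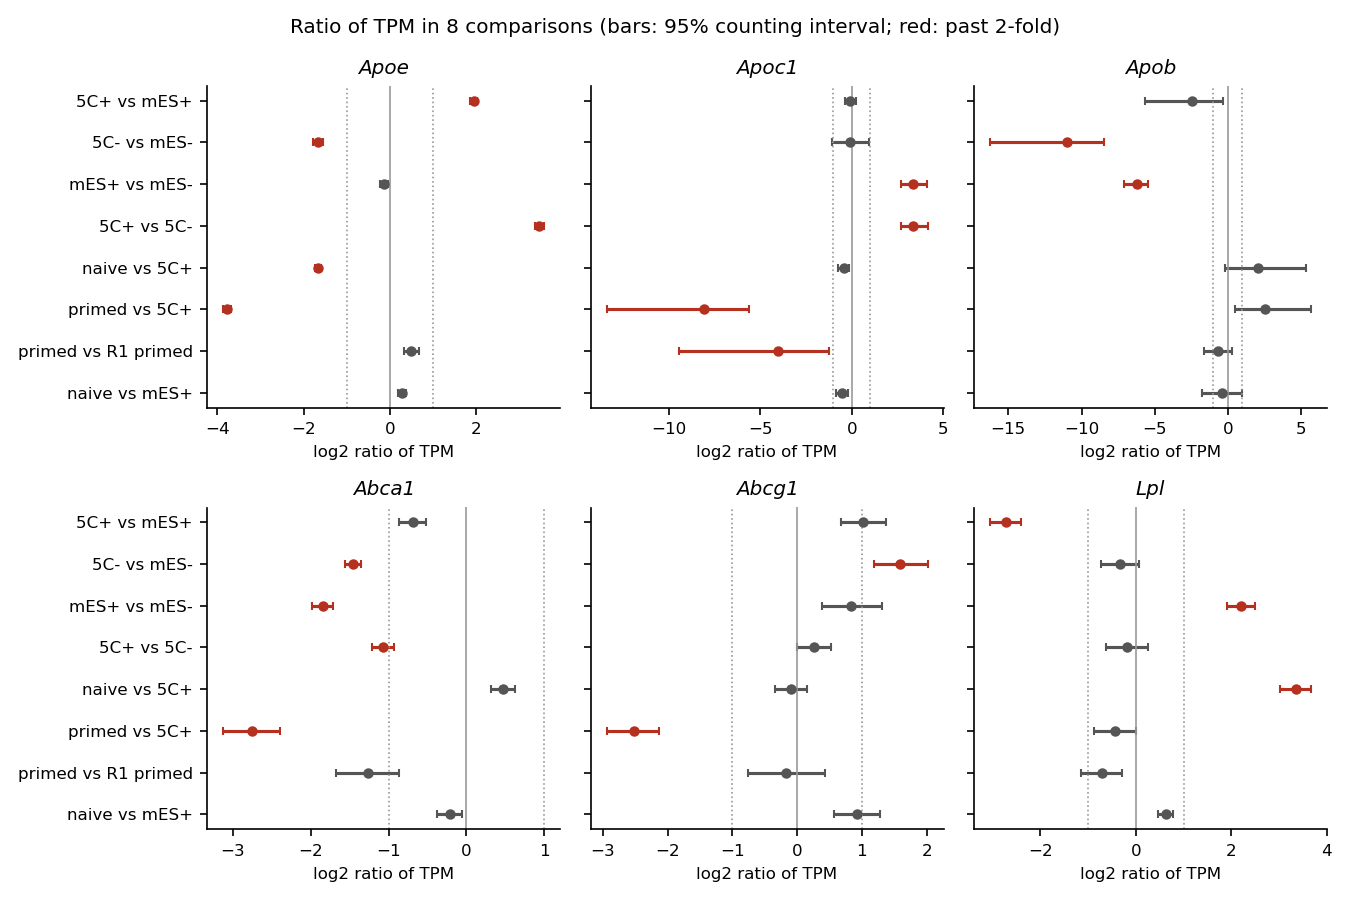
log2 ratio of TPM (horizontal) in each of 8 comparisons (vertical, first library over second) with 95% counting intervals. Red points passed 2-fold on log2(TPM + 1), dotted lines are at 2-fold, and a low gene can lie beyond them in grey because of the added 1. Apoe lies right of 0 in 5C+ vs mES+ (3.86 times) and left of it in 5C- vs mES- (3.17-fold lower).

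Apoe lies in a cluster of genes on chromosome 7, all on the minus strand, and the non-apolipoprotein genes beside it varied less. In the order in which they are transcribed these are Bcam, Nectin2, Tomm40, Apoe, Apoc1, Apoc4, Apoc2 and Clptm1. The closest upstream gene, Tomm40 (chr7:19701313-19715438), which encodes the pore of the mitochondrial import complex, was at 267 TPM in 5C+ cells and between 120 and 301 TPM in the others. The adhesion proteins Bcam and Nectin2 ranged from 21.05 to 57.7 and from 38.23 to 93.92 TPM, and Clptm1, at the far end, from 48.27 to 66.17 TPM. Nectin2 was past 2-fold lower in 5C- than in mES- cells, and Bcam past 2-fold higher in 5C+ than in 5C- cells, as Apoe was. Tomm40 was past 2-fold higher in mES+ than in mES- cells, where Apoe was similar. In 5C+ against mES+ cells none of these neighbours was past 2-fold. Apoc2, the cofactor of Lpl, had its highest values where Lpl did, with 17.94 TPM (42 reads) in naive and 10.3 TPM (17 reads) in mES+ cells, then 5.69 in mES- and 3.53 in 5C+ cells and no read in the other 3 libraries. Apoc4 had no read in any library.

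**Figure D4:**
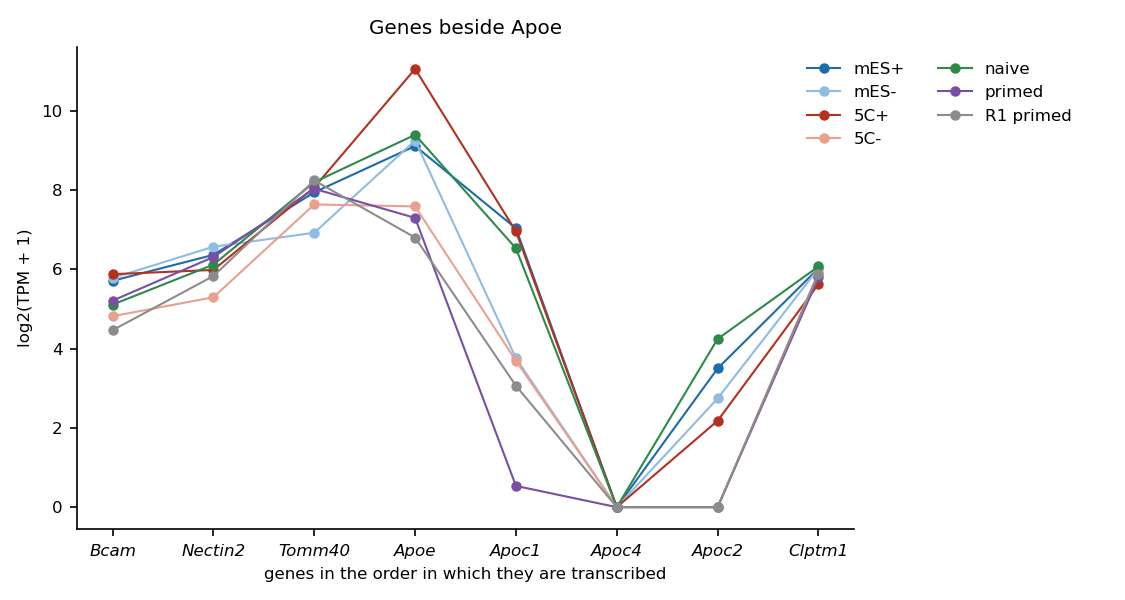
log2(TPM + 1) of Apoe and 7 neighbours, in the order of transcription and not to scale, with 1 line per library joining its own values. The lines spread most at Apoe, Apoc1 and Apoc2, while at Clptm1 all libraries lie between 48.27 and 66.17 TPM.

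For each of the 6 genes the 5 with the most similar profile were listed, by Pearson correlation of log2(TPM + 1) over the 7 libraries, among 10006 genes compared. With 7 points, many genes reach high values, and with Spearman correlation the lists kept 1 of 5 genes for Apoe, 2 of 5 for Apoc1 and 0 of 5 for each of the other 4. The values are given as descriptions. Nearest to Apoe were Amdhd2 (r = 0.984), Diaph2 (0.980), AY512931 (0.977), Plekhm1 (0.967) and Klf9 (0.964), all highest in 5C+ cells but over a narrower range (Amdhd2, 29.78 to 72.31 TPM). Nearest to Apoc1 were 2210418O10Rik (0.995), Gm14296 (0.986), Nexmif (0.985), Gm14401 (0.982) and Snx20 (0.981). The profile of Apob is set by 1 library, and those nearest to it, Csf1r and Afp (both 0.993), Bsg (0.992), Hist1h2br (0.990) and Krt20 (0.989), were highest in that library as well. Abca1 had Plekhb2 (0.995), Nagk (0.992), Sh3glb2 (0.991), Zbtb7a (0.990) and Snap91 (0.986). Abcg1 had Cyp2b23 (0.969), Epb41l4aos (0.968), C2cd4b (0.963), Lrch4 and Gm13568 (both 0.960). Lpl had Tigd2 (0.985), the nuclear receptor gene Nr1i3 (0.984), and Defa24, DXBay18 and Spint5 (all 0.983), the last 3 without a read outside naive and mES+ cells.

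Around the 6 genes, 61 other genes of lipoprotein handling were followed in 7 lists. In 5C+ against mES+ cells 14 of 41 tested were past 2-fold (34.1%, beside 27.2% of all tested genes), 7 higher and 7 lower, with a median log2(TPM + 1) difference of 0.16 (-0.06 over all genes). In 5C- against mES- cells it was 17 of 49 (34.7%, beside 19.8%), 4 higher and 13 lower (median -0.32, all genes 0.03). In mES+ against mES- cells it was 33 of 51 (64.7%, beside 46.7%), 4 higher and 29 lower (median -1.24, all genes -0.15). Against 5C- cells, 5C+ cells had 19 of 44 (43.2%, beside 31%), 3 higher and 16 lower (median -0.72, all genes -0.25). Genes past 2-fold were also more often lower over the whole table in these last 2 comparisons, 4685 of 7606 and 3538 of 4862. Naive cells had 19 of 39 (48.7%, beside 27.5%), 7 higher and 12 lower (median -0.18, all genes -0.10), and primed cells 15 of 44 (34.1%, beside 29.7%), 12 higher and 3 lower (median 0.25, all genes 0.06), both against 5C+ cells. Primed against R1 primed cells gave 6 of 44 (13.6%, beside 7.39%), 1 higher and 5 lower (median -0.05, all genes -0.03), and naive against mES+ cells 1 of 39 (2.56%, beside 8.77%), with a median of -0.04 (all genes -0.16). These shares describe the lists, and nothing particular to lipoprotein genes is read from them.

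Among the other apolipoproteins, Apoa2, a component of HDL, was high in the same 3 libraries as Apoc1. It was at 54.32 TPM in mES+, 43.2 in 5C+ and 64.43 in naive cells, and at 4.13 to 17.31 in the other 4. Clusterin (Clu), a secreted chaperone, was at 173 TPM in mES-, 70.7 in 5C- and 42.82 and 47.02 in primed and R1 primed cells, and at 2.94 to 10.79 in the other 3. Apod, a lipocalin that carries small lipids, was highest in 5C- cells (100.09 TPM) and between 3.67 and 30.32 elsewhere. Apom, an HDL lipocalin, was highest in mES- cells (17.61 TPM), 10.14 in naive cells and 0.25 (1 read) in 5C- cells. Apoa1 was at least 64.9-fold lower in 5C- and 50.7-fold lower in mES+ than in mES- cells, taking 3 reads as the floor of a library, and Apoa4, another HDL protein, had 24 reads there and none in any other. In 5C- against mES- cells 7 of 7 tested genes of this list were past 2-fold, 2 higher and 5 lower, beside 19.8% of all tested genes. Of this pair, Apoa1, Apoa4, Apoc2 and Apom reached 1 TPM only in mES- cells, so the filter let them come out only as lower. The list holds 11 genes, and those under 1 TPM in both libraries were not tested, so nothing is read from this count.

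In assembly and secretion, Mttp was 8.33-fold lower (5.79 to 12.4) in mES+ and 5.16-fold lower (3.95 to 6.84) in 5C- than in mES- cells, and 5.13 times higher (3.34 to 8.18) in primed than in 5C+ cells, where Apob was at 0.49 and 0.08 TPM. Tm6sf2, which takes part in loading fat onto Apob particles, stayed at or under 2.87 TPM, the value of mES+ cells, and was at 0.13 TPM (1 read) in 5C+ cells.

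Among the receptors for Apoe, Lrp1, a large remnant receptor, was at 335 TPM in mES- cells, 105 in 5C- and 24.75 to 80.23 in the others, and its helper Lrpap1 was at 331 TPM in mES- cells and 84.43 to 247 in the others.

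Lrp8, the receptor for Apoe and reelin, and the sorting receptor Sort1, which handles Apob and Lpl, were lowest in the 2 libraries with high Lpl. Lrp8 was at 2.57 TPM in mES+ and 4.05 in naive cells and at 13.07 to 35.04 in the other 5. Sort1 was at 2.14 and 1.4 TPM in those 2 and at 14.32 to 34.14 in the other 5. Lsr, a receptor for remnants that is also a protein of epithelial junctions, was at 14.12 and 8.76 TPM there and highest in primed (129 TPM) and R1 primed cells (118 TPM). Vldlr was at 14.39 TPM in mES- and 11.86 in primed cells, against 0.76 in mES+ cells. Scarb1, the HDL receptor, was at 123 TPM in 5C- and 59.01 in 5C+ cells. The scavenger receptors Cd36, Olr1, Stab1 and Stab2 stayed at or under 7.16 TPM.

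Of the other lipases, Lipc and Lipg were low, while Lipa was above Lpl in libraries that include mES-, 5C- and primed cells. Lipa, the lysosomal acid lipase, was at 27.24 TPM in mES- cells and at 1.39 to 13.11 elsewhere, with its lowest values in naive and mES+ cells. Lipc, hepatic lipase, reached 2.77 TPM in mES+ and 2.29 in naive cells and at most 0.38 in the others. Lipg, endothelial lipase, was highest in 5C- cells at 6.37 TPM. Lmf1, which is needed to fold Lpl, was at 5.56 TPM in naive and 8.27 in mES+ cells, the 2 libraries with high Lpl, and at 12.99 to 19.76 in the other 5. Angptl4, an inhibitor of Lpl, was at 13.4 TPM in mES+ and 10.73 in naive cells and at 0.7 to 5.78 in the others. Gpihbp1, which anchors Lpl on capillary cells, was at 0 in 5 libraries with at most 2 reads in the others, and Angptl8, also an inhibitor, was at 1.43 TPM or less.

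Of the exporters beside Abca1 and Abcg1, Abca2 was at 42.69 TPM in mES-, 34.51 in 5C-, 11.96 in 5C+, 10.61 in mES+ and 3.03 in naive cells, and it was the 1 gene past 2-fold between naive and mES+ cells. Abca7 was at 22.21 TPM in mES-, 13.31 in 5C+, 5.59 in naive and 4.09 in mES+ cells, and Abcg4 at no more than 2.28 TPM. Soat1, which esterifies cholesterol for storage, was 2.69 times higher (2.3 to 3.17) in 5C+ than in mES+ cells and 3.06-fold lower (2.62 to 3.58) in naive than in 5C+ cells. Npc2, which hands lysosomal cholesterol to Npc1, was at 215 TPM in naive and 98.35 in 5C+ cells.

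The last list holds LXR, RXR and PPAR genes, which include the regulators of Abca1 and Abcg1, and other LXR targets. In 5C+ against mES+ cells 0 of its 6 tested genes were past 2-fold, beside 27.2% of all tested genes, and in naive against 5C+ cells 1 of 6, beside 27.5%. That gene was Lpcat3, an LXR target that remodels phospholipids, which was at 172 and 55.47 TPM. Nr1h3, which encodes LXR alpha, was at 6.3 TPM (45 reads) in mES- and 5.61 (28 reads) in 5C- cells. It was at 0.98 (2 reads) and 0.82 (4 reads) in the matching Oct4GFP+ cells. Its partner Rxra was at 48.29 and 35.29 against 7.49 and 12.49 TPM. The other LXR gene, Nr1h2, was not lower in Oct4GFP+ cells. Nr1h2 was at 110.68 TPM in mES-, 122.1 in 5C-, 120.44 in mES+ and 183.81 in 5C+ cells. Rxrb was at 49.93 to 53.92 TPM in the same sorted libraries. Rxrg was at 15.5 TPM in primed and 21.52 in R1 primed cells and at no more than 3.25 elsewhere, and Pparg at no more than 1.78. Srebf1, a lipid synthesis regulator and LXR target, was at 173 TPM in 5C- and 65.47 in mES- cells, a ratio of 2.64 (2.44 to 2.85), in the pair in which Abca1 was lower and Abcg1 higher in 5C medium.

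**Figure D5:**
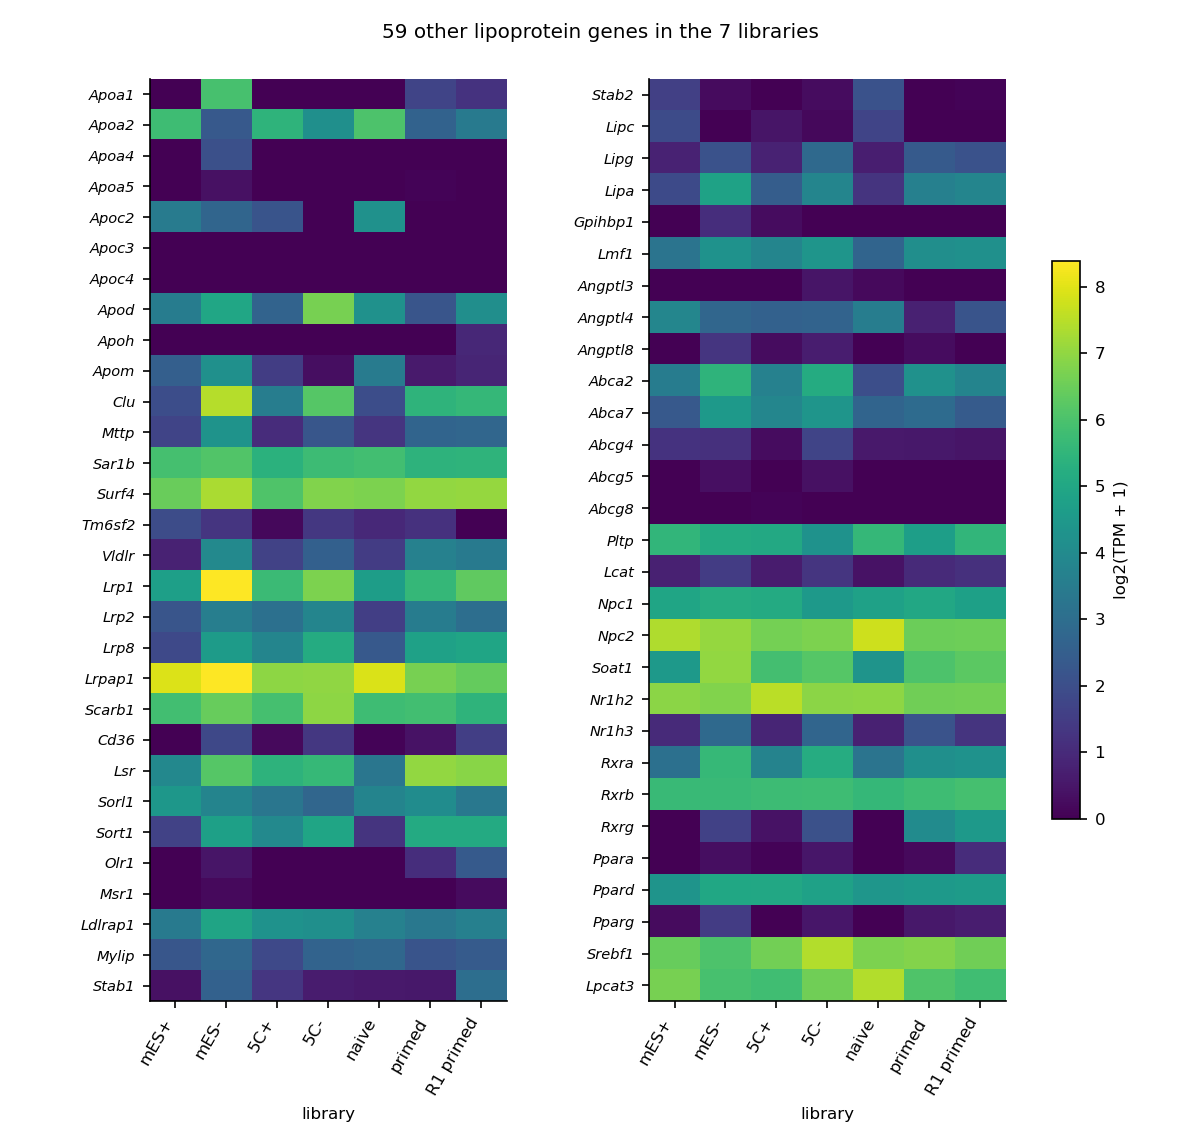
log2(TPM + 1) of 59 of the 61 other genes, rows, in the 7 libraries, columns, from dark (0) to yellow (high), 1 library per column. The mES- column is bright for Apoa1 (61.26 TPM), Clu (173 TPM) and Lrp1 (335 TPM), and the 5C- column for Apod (100.09 TPM).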

How the data were processed

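RNA of 7 groups, 1 library each, was read with Illumina TruSeq libraries on a MiSeq. Per the submitters' processing notes the authors used Bowtie and RSEM on mm10, versions not given in the sources used here. The deposited expected counts are RSEM estimates of reads per Ensembl gene, the deposited TPM are those counts per effective length scaled to the same sum, and the deposited FPKM are scaled to the library's fragments. RSEM shares reads between transcripts and similar genes, and its mean length of a gene differs between libraries.

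The members and gene lists were chosen with earlier results of these data known. Differences were taken on log2(TPM + 1), with a pseudocount of 1, and called past 2-fold at a difference of 1 where one of the libraries reached a TPM of 1. Counts were rounded, and 95% intervals were exact Poisson for levels and exact Clopper-Pearson for ratios. A library without a read was set to a floor of 3 reads for "at least" folds. No test was possible with 1 library per group. Symbols were matched to GENCODE M21 on GRCm38 (mm10) and promoters to RefSeq on GRCm38.p6. Calculations used Python 3.11.15, pandas 2.3.3 and scipy 1.17.1, and were tested on simulated data.

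Genes were named by rule: the 6 genes, per comparison and list up to 4 with the largest difference past 2-fold, the neighbours of Apoe, the 5 most similar genes, and of each marker list the highest gene and those at 0. Outside this rule, Nr1h2 and Rxrb were added beside Nr1h3 and Rxra. The lists were other apolipoproteins, assembly and secretion, receptors, lipases, ABC exporters, cholesterol remodelling, nuclear receptors and marker lists. Of the receptor list, 2 genes are counted and otherwise not reported here. Alternatives were FPKM, a pseudocount of 0.1, median-ratio rescaling, CPM without length, a minimum TPM of 5, no minimum, and Spearman correlation.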

Additional observations from a re-analysis of the deposited data

Results flagged for a closer look

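The direction of the difference in Apoe between 5C and mES medium depended on the sort. The ratio was 3.86 (3.66 to 4.06) in Oct4GFP+ cells and 0.315 (0.291 to 0.341) in Oct4GFP- cells, and each interval leaves out 1 on its own side. In the same 4 libraries the ratio of Oct4GFP+ to Oct4GFP- cells was 0.908 (0.854 to 0.966) in mES medium and 11.1 (10.3 to 12) in 5C medium. These are 1 pattern seen along 2 margins. With 1 library per group the gap between the ratios was not tested against the spread between cultures. The counting interval of 0.908 leaves out 1, but the ratio was 0.99 in FPKM, 0.963 on CPM and 0.95 after median-ratio rescaling. Its direction is therefore uncertain. The other 5 genes did not show opposite directions with both intervals away from 1. Markers of extraembryonic endoderm and fibroblasts were highest in the mES-Oct4GFP- library (246 and 536 summed TPM), which enters both ratios under 1, and their part was not tested.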

How the results depend on the processing

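No paired analysis was possible because each group has 1 library, and for the same reason no library could be left out. In 20 cases a member was past 2-fold in a comparison. Under FPKM, a pseudocount of 0.1, median-ratio rescaling and CPM without length, 78 of the 80 resulting values stayed past it and 0 changed sign. The exceptions were Abca1 in 5C+ vs 5C-, at -0.89 in FPKM and -0.87 after rescaling. The number of members past 2-fold in primed vs R1 primed was 1, and 2 with a pseudocount of 0.1 and with CPM, which added Abca1. In 5C+ vs mES+ it was 2, and 3 with a pseudocount of 0.1, which added Abcg1, and with CPM, which added Apob. In primed vs 5C+ it was 4, and 5 with CPM, which added Apob. The counts of the other lipoprotein genes stayed within 1.5 times except in 4 comparisons. In 5C+ vs 5C- 19 became 12 with FPKM and with a minimum TPM of 5. That minimum, under which fewer genes are tested, gave 9 for 15 in primed vs 5C+ and 2 for 6 in primed vs R1 primed. In naive vs mES+ 1 became 5 with the smaller pseudocount, and 2 with rescaling and with CPM. The cause of the other changes was not tested.

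The scaling moved the median of all genes by over 0.1 in 3 comparisons: from -0.25 to -0.11 in 5C+ vs 5C- and from -0.16 to -0.04 in naive vs mES+ after rescaling, and from -0.15 to -0.04 in mES+ vs mES- with FPKM. Of all genes past 2-fold in naive vs mES+, 28.4% were higher in naive cells, and 38.9% after rescaling. At these depths 3 reads were worth 0.452 to 0.969 TPM of Apoe and 1.35 to 2.53 TPM of the short gene Apoc1, so values of Apoc1 near 1 TPM are at the limit of detection.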
